A study of Homo sapiens with 16 samples.

Results

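The clustered protocadherin genes were taken as every gene in the count table whose symbol has the form PCDHA or PCDHB with a number, PCDHGA or PCDHGB with a number, or PCDHAC or PCDHGC with a number. This gave 55 of 23459 genes, with 15 in the alpha cluster, 18 in the beta cluster and 22 in the gamma cluster. Of these, 54 had enough counts to be tested, and PCDHB1 did not. RNA was sequenced from IMR5-75 and Be(2)-C, both established human neuroblastoma lines. In each line cells received DAC (1 µM for 72 h) together with EPZ-6438 (1 µM for 96 h; EPZ in the following), EPZ alone, DAC alone, or the solvent DMSO. DAC is an abbreviation that the labels leave unexplained; it is the usual one for decitabine, a cytidine analogue that depletes DNA methyltransferases. EPZ-6438 is an inhibitor of EZH2, which methylates histones as part of a Polycomb complex. There were 2 libraries for each of the 8 groups, and they are named by line, treatment and number, as in IMR5-75 DAC 1. Whether the 2 libraries of a group are separate cultures is not stated, so the p-values cover the spread between libraries and no more, and that spread may be technical.

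Clustered protocadherins are cell-surface cadherins that lie in a row of 3 neighbouring clusters on the long arm of human chromosome 5. A neuron switches on a small choice of them, each from its own promoter, and the resulting combination of proteins lets neurites of the same cell recognise and avoid one another. Each alternate alpha and gamma gene contributes a variable first exon that is spliced to constant exons shared by its whole cluster, whereas each beta gene is a single exon. The alternate promoters carry a conserved element with the core CGCT, are bound by CTCF when active, and are known to be methylated when silent. The C-type genes at the end of the alpha cluster (PCDHAC1 and PCDHAC2) and of the gamma cluster (PCDHGC3, PCDHGC4 and PCDHGC5) are regulated apart from the alternate genes, and in mouse neurons they are expressed more evenly from cell to cell.

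The word CGCT, the core of the promoter element, was looked for in RefSeq windows (GRCh38.p14). Each window ran from 250 bases before to 50 bases after a transcript start. Whether a match belongs to the conserved element was not tested. Windows were at hand for 47 of the 55 genes and not for PCDHA3, PCDHA13, PCDHB6, PCDHB11, PCDHB17, PCDHB18, PCDHGA12 and PCDHGC5. The word CGCT lay on the gene's own strand 30 to 100 bases before the start in 43 of 47 windows (91.5%), against 21.7% of the windows of all 27305 genes in the table. By cluster it was there in 12 of 13 alpha, 12 of 14 beta and 19 of 20 gamma windows. The following 24-base stretches show the word for genes that the results turn on, with CGCT in capitals. Where a window held more than 1, the CGCT nearest to 50 bases before the start is shown.

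PCDHA8, chr5:140841136-140841159, plus strand: cacatgatgtCGCTgtctaccaag
PCDHA11, chr5:140868889-140868912, plus strand: cgcaaggtgtCGCTctttacttgg
PCDHAC1, chr5:140926226-140926249, plus strand: aaggtgtggtCGCTcacgttcacc
PCDHAC2, chr5:140966425-140966448, plus strand: gccctcctacCGCTccctttcccc
PCDHB2, chr5:141094550-141094573, plus strand: cgcggggtggCGCTgcagccttag
PCDHB3, chr5:141100399-141100422, plus strand: cgcatggtggCGCTgttgactaag
PCDHB14, chr5:141223269-141223292, plus strand: cacatggtggCGCTacaggataag
PCDHB15, chr5:141245320-141245343, plus strand: cgcatggtggCGCTgcaggctaag
PCDHGB4, chr5:141387650-141387673, plus strand: gagagcttggCGCTccagatctcc
PCDHGB7, chr5:141417613-141417636, plus strand: gcagagcaagCGCTgacgccgggg
PCDHGA11, chr5:141420978-141421001, plus strand: ctctaggcgcCGCTgctcaccaat
PCDHGC3, chr5:141475905-141475928, plus strand: ccaatgaagaCGCTggagatcggg

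The letters around the core differed by cluster. The word GTGGCGCT, searched on both strands, was in 13 of 14 beta windows, in 0 alpha and 0 gamma windows, and in 1.18% of all windows. GTCGCTGT was in 5 of 13 alpha and 6 of 20 gamma windows, against 0.71% of all windows. GCCGCTGT was in 11 of 20 gamma windows and in no alpha or beta window, against 1.6% of all windows. These words overlap the CGCT core and were picked by their frequency in the members' own windows, so the comparison with all windows is a description. Genes that kept a level in untreated IMR5-75 cells carried the word CGCT (PCDHA8, PCDHAC1, PCDHB14). So did genes that were near 0 there (PCDHA11, PCDHB2, PCDHB15).

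**Figure D1:**
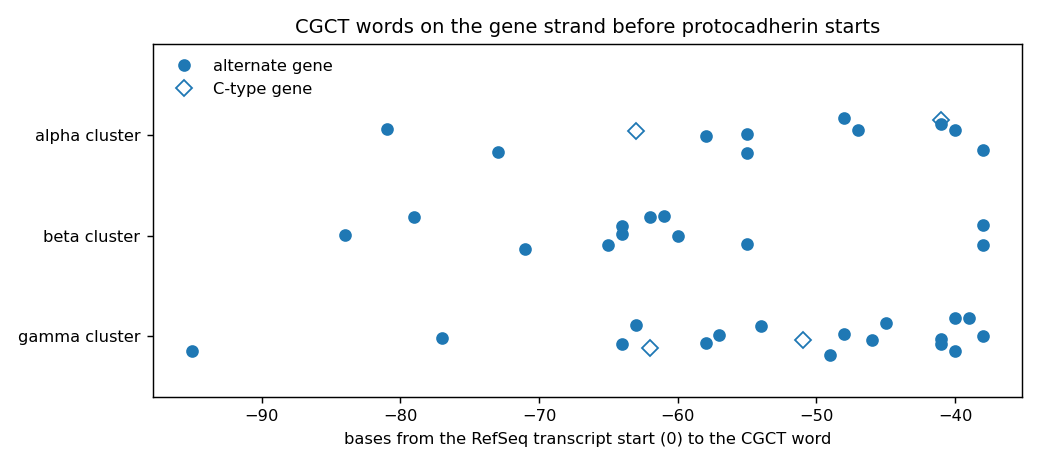
Distance in bases from the RefSeq transcript start to the CGCT word on the gene strand (horizontal axis) for the 43 members with such a word between 30 and 100 bases before the start, by cluster. Points are jittered in height only, filled for alternate genes and open for C-type genes, and run from 95 to 38 bases before the start.

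CG dinucleotides, the sites at which DNA is methylated, were sparse in the windows of the alternate genes and dense in those of the C-type genes. The 43 alternate windows held a median of 7 CG dinucleotides (range 2 to 16), the 4 C-type windows a median of 20.5 (range 15 to 27), and all windows a median of 14. The 200 bases before the start are printed for PCDHB5, PCDHA8 and PCDHAC2, with each CG in capitals. PCDHB5 had the largest fitted change under DAC in both lines, and PCDHA8 and PCDHAC2 were the 2 tested genes not called under DAC in IMR5-75.

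PCDHB5, chr5:141135006-141135205, plus strand: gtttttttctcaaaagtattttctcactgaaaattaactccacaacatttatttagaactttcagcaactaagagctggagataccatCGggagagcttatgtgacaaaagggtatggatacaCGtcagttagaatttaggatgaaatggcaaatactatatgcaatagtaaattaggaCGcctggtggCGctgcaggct
PCDHA8, chr5:140840987-140841186, plus strand: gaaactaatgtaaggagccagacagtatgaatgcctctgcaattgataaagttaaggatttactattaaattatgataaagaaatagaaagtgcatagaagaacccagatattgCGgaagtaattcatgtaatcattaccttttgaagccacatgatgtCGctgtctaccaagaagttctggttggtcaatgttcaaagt
PCDHAC2, chr5:140966276-140966475, plus strand: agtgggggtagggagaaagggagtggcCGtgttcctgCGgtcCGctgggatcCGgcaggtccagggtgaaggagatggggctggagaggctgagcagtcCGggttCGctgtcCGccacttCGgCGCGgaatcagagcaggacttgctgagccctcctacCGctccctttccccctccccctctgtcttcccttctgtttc

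In these stretches PCDHB5 held 4 CG dinucleotides, PCDHA8 held 2 and PCDHAC2 held 11. The stretch of PCDHB5 also holds a CGCT, but nearer to the start than the 30 bases used above. Across the 42 alternate genes with a window and a test, more CG dinucleotides went with a larger change under DAC in IMR5-75 (Spearman's rho 0.42), and this was not so in Be(2)-C (rho 0.08). With the C-type genes included the values over 46 genes were 0.23 in IMR5-75 and -0.10 in Be(2)-C. These are descriptions across genes of the same libraries.

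The 16 libraries held 9539557 to 14032155 counts, and 3 counts, used below as the floor, corresponded to 0.214 to 0.314 CPM (counts scaled by library size). Levels are CPM, and changes are log2 ± SE from edgeR's quasi-likelihood test across 15967 genes. A gene was called where the p-value adjusted by Benjamini-Hochberg was under 0.05. Where a group had 0 counts the fold is a lower bound against 3 counts over that group, and for 1 to 3 counts a ratio is printed, followed by an exact binomial interval (95%). Intervals and floors cover counting error only. Of 10 noradrenergic neuroblastoma markers, the summed level was 2180 to 3270 CPM over the IMR5-75 libraries and 4880 to 7410 CPM over the Be(2)-C libraries. The sum was lower with drug. In IMR5-75 it was 2180 to 2600 CPM after DAC, against 2840 to 3270 CPM in DMSO. In Be(2)-C it was 5860 to 5950 CPM after DAC, against 7340 to 7410 CPM in DMSO. In bulk RNA, fewer cells that express a gene and less of its RNA per cell cannot be told apart. How the counting treated reads in the constant exons, and reads that match near-identical neighbours, is not given in the sources used here. Values of single genes are therefore less certain than those of a cluster.

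The first comparison set the lines side by side without drug. In IMR5-75 the clusters were close to silent: 5 of the 55 genes averaged 1 CPM or more in DMSO, namely PCDHAC1, PCDHAC2 and PCDHA8 in the alpha cluster and PCDHB14 and PCDHB11 in the beta cluster, and 5 genes had 0 counts in both libraries (PCDHB1, PCDHB4, PCDHB6, PCDHGA7 and PCDHGB4). In Be(2)-C 51 of the 55 genes averaged 1 CPM or more. Of the 54 tested genes, 51 were lower in IMR5-75 than in Be(2)-C and 0 were higher, with 14 of 15 alpha, 15 of 17 beta and 22 of 22 gamma genes lower. Over all tested genes, 31.2% were lower and 32% higher. The median log2 difference of the 54 genes was -3.88, against -0.01 over all tested genes.

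The summed alpha cluster was 23.9 and 27.2 CPM in IMR5-75 DMSO, against 112 and 126 CPM in Be(2)-C DMSO. The summed beta cluster was 9.73 and 10.2 CPM in IMR5-75 DMSO, against 115 and 124 CPM in Be(2)-C DMSO. The summed gamma cluster was 5.3 and 3.11 CPM in IMR5-75 DMSO, against 105 and 117 CPM in Be(2)-C DMSO. The lines did not overlap in any cluster, and in proportion the gap was widest for the gamma genes. In IMR5-75 the sums rested on few genes: PCDHAC2 made up 42.6 and 42.3% of the alpha sum, and PCDHB14 made up 44.7 and 43.8% of the beta sum.

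PCDHGC3, a gamma C-type gene, was at 0.295 and 0 CPM in IMR5-75 DMSO, against 33.8 and 33.9 CPM in Be(2)-C DMSO. The difference was -7.66 ± 0.53 (adjusted p = 3.67e-11) and ran from -11.68 to -6.79 when 1 library at a time was left out, the lowest value being the one without IMR5-75 DMSO 1, which alone of the pair held counts. In Be(2)-C it was the most abundant gamma gene per length (13.1 CPM per kilobase of coding sequence that it does not share), ahead of PCDHGB1 at 5.39. PCDHB15 was at 0.589 and 0.336 CPM in IMR5-75 DMSO, against 14.3 and 15.3 CPM in Be(2)-C DMSO (-4.95 ± 0.27, adjusted p = 7.73e-13). PCDHA11 was at 0.295 and 0 CPM in IMR5-75 DMSO, against 12.2 and 16.2 CPM in Be(2)-C DMSO (-6.41 ± 0.38, adjusted p = 3.07e-12). These 3 genes, one from each cluster, were at or near the floor in IMR5-75 and well expressed in Be(2)-C.

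The alpha C-type genes differed much less between the lines. PCDHAC1 was at 8.4 and 8.16 CPM in IMR5-75 DMSO, against 23.5 and 25.1 CPM in Be(2)-C DMSO (-1.55 ± 0.18, adjusted p = 2.05e-07). PCDHAC2 was at 10.2 and 11.5 CPM in IMR5-75 DMSO, against 27.1 and 30.7 CPM in Be(2)-C DMSO (-1.41 ± 0.16, adjusted p = 8.55e-08). Per kilobase of unshared coding sequence these were the top alpha genes in both lines, with PCDHAC2 at 4.07 CPM in IMR5-75 and 10.9 CPM in Be(2)-C, and PCDHAC1 at 3.37 CPM in IMR5-75 and 9.9 CPM in Be(2)-C.

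The genes that were not called between the lines were PCDHA8, PCDHB11 and PCDHB17, which are named because they are few and were chosen after their values were seen. PCDHA8 was at 2.51 and 4.54 CPM in IMR5-75 DMSO, against 3.71 and 5.05 CPM in Be(2)-C DMSO, and the groups overlapped (-0.33 ± 0.31, adjusted p = 0.368). PCDHB11 was at 1.77 and 2.1 CPM in IMR5-75 DMSO, against 2.45 and 2.66 CPM in Be(2)-C DMSO (-0.40 ± 0.35, adjusted p = 0.325). PCDHB17 is a pseudogene in RefSeq (PCDHB17P) and was under the floor in IMR5-75 DMSO. PCDHB1, PCDHB5, PCDHB17 and PCDHGB5 averaged under 1 CPM in DMSO in both lines. PCDHB5 was at 0.295 and 0.168 CPM in IMR5-75 DMSO, against 0.543 and 0.826 CPM in Be(2)-C DMSO. Its difference of -1.5 ± 0.59 (adjusted p = 0.0326) lost its call without IMR5-75 DMSO 2 or without Be(2)-C DMSO 2.

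**Figure D2:**
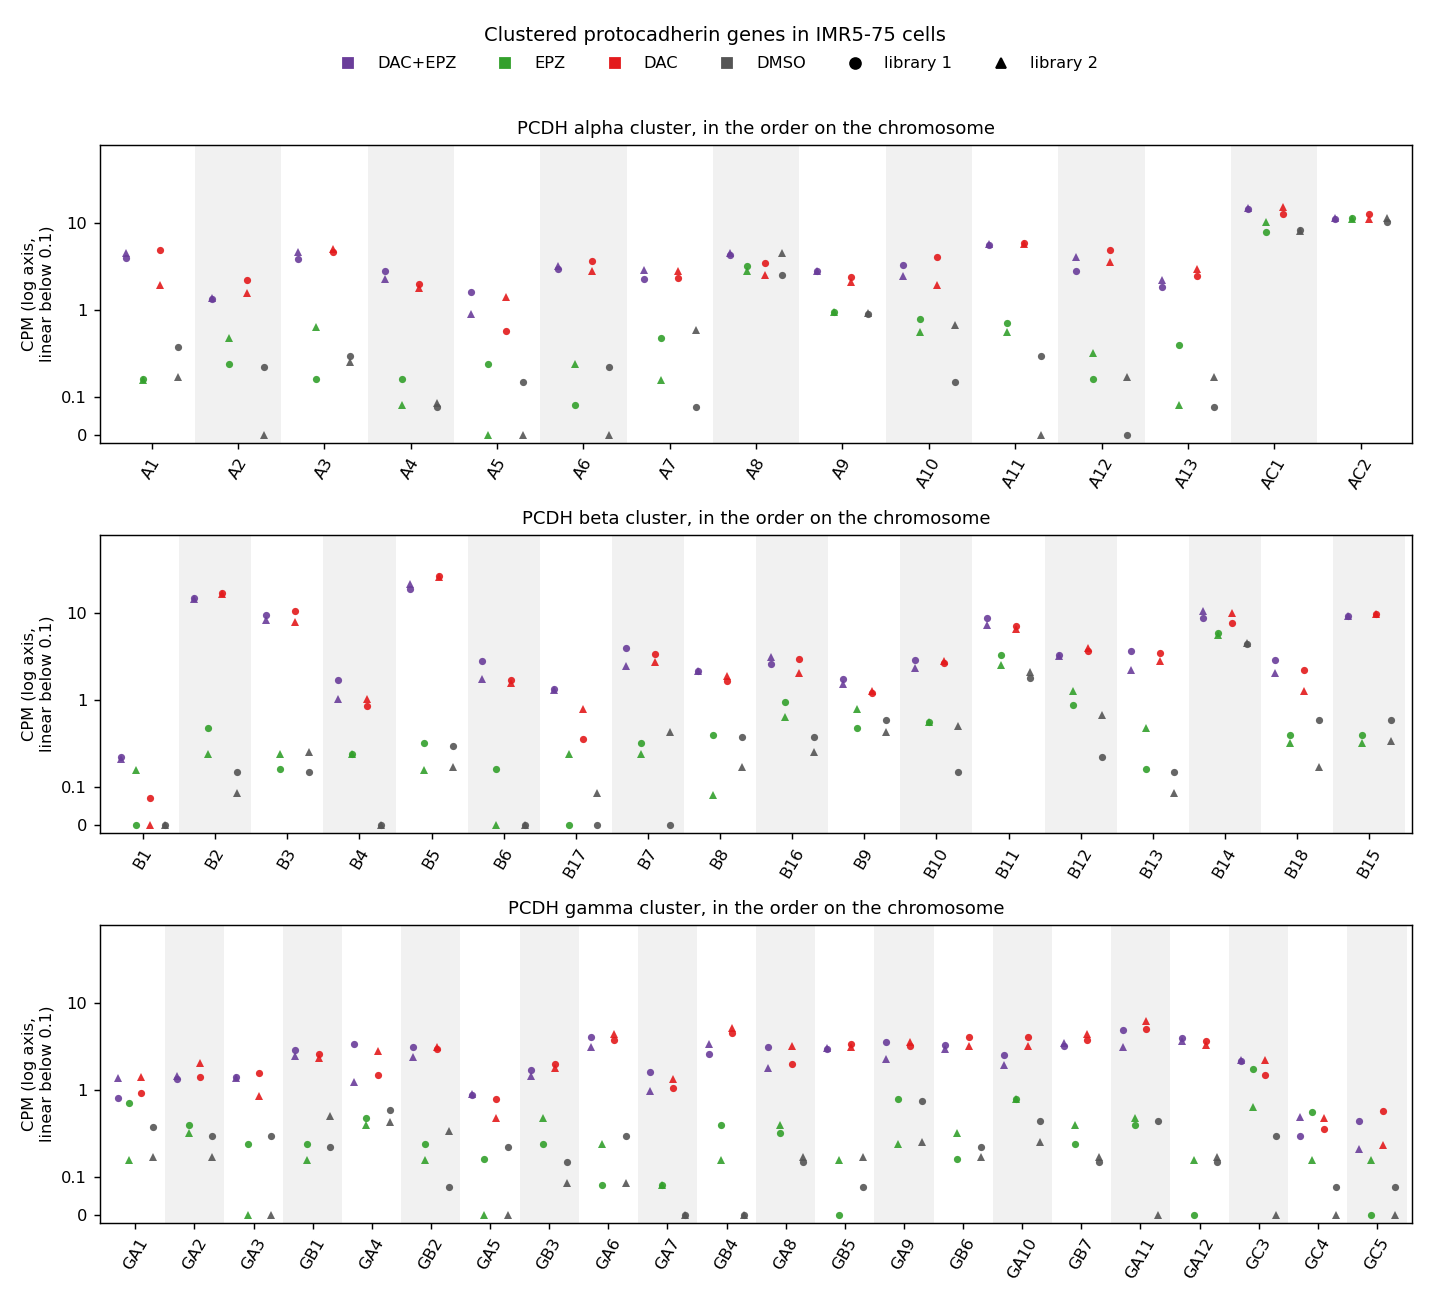
Level of each of the 55 genes in IMR5-75 cells in CPM (vertical axis, logarithmic above 0.1 and linear below) in each library, with genes in their order along the chromosome and 1 panel per cluster. Colours give the treatment and point shapes the library; DAC and DAC+EPZ libraries lie well above EPZ and DMSO libraries for most genes, while the libraries of all 4 groups lie close together for A8 and AC2.

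The comparison of DAC with DMSO in IMR5-75 asked what the drug did to these near-silent clusters. DAC raised 52 of the 54 tested genes and lowered 0, with 13 of 15 alpha, 17 of 17 beta and 22 of 22 gamma genes higher. Over all tested genes, 19.9% were higher and 13.8% lower. In all 52, both DAC libraries were above both DMSO libraries, as they were in 33.6% of all tested genes, called or not. The median change of the 54 was 3.54, against 0.02 over all tested genes. After DAC 48 of the 55 genes averaged 1 CPM or more, against 5 in DMSO. Leaving out 1 library at a time left 45 to 48 of them called, and 43 were called each time.

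The summed alpha cluster was 68.9 and 62.5 CPM after DAC, against 23.9 and 27.2 CPM in DMSO, a ratio of means of 2.57. Without the C-type genes the alpha sum averaged 39.9 ± 5.26 CPM after DAC and 6.44 ± 1.6 CPM in DMSO (SD, n = 2 each), a ratio of 6.2. The summed beta cluster was 103 and 99 CPM after DAC, against 9.73 and 10.2 CPM in DMSO, a ratio of 10.2. The summed gamma cluster was 54.6 and 58.7 CPM after DAC, against 5.3 and 3.11 CPM in DMSO, a ratio of 13.5. Every cluster therefore had its DAC libraries above its DMSO libraries, by the smallest ratio in the alpha cluster.

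**Figure D3:**
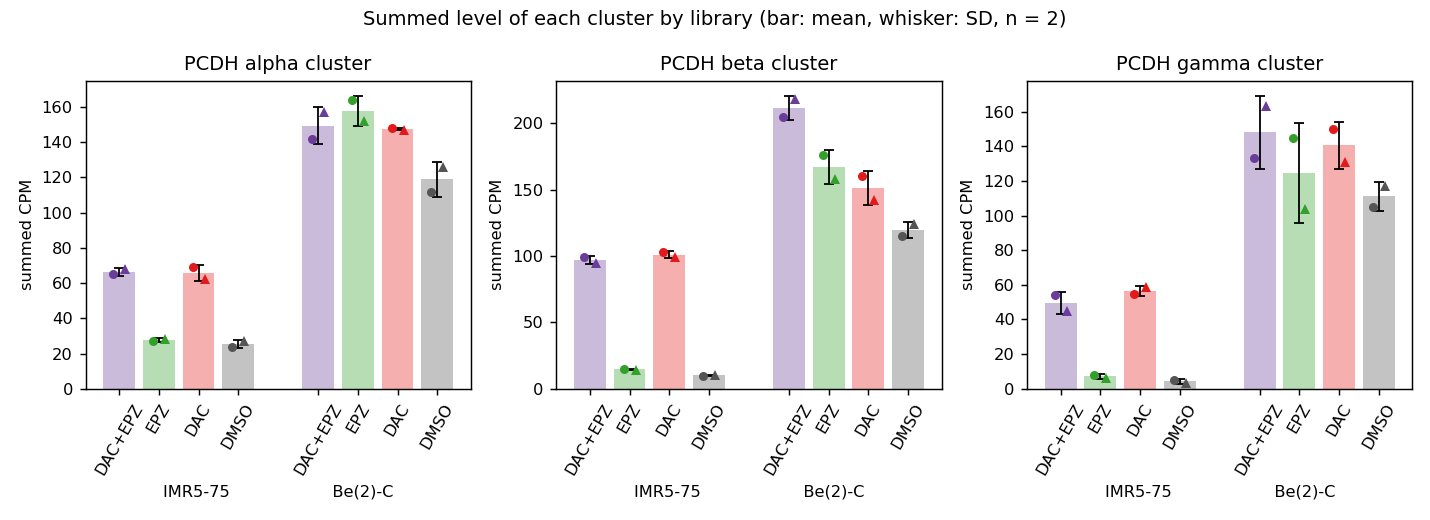
Summed CPM of the alpha, beta and gamma genes (vertical axis) by treatment in IMR5-75 (left 4 bars of a panel) and Be(2)-C (right 4 bars). Bars are means, whiskers SD over 2 libraries, and points single libraries; in IMR5-75 the DAC and DAC+EPZ bars stand well above EPZ and DMSO, and in Be(2)-C the beta bar after both drugs, at 205 and 218 CPM, is the highest of its 4.

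Beta genes gave the largest single changes. PCDHB5 had 26.9 and 26.1 CPM after DAC, against 0.295 and 0.168 CPM in DMSO, or 380 and 335 counts against 4 and 2 (6.75 ± 0.30, adjusted p = 1.88e-12). It was the most abundant beta gene after DAC, holding 26.1 and 26.4% of the beta sum. PCDHB2 had 17.1 and 16.4 CPM after DAC, against 0.147 and 0.0841 CPM in DMSO, a ratio of 142 (interval 48.4 to 693). PCDHB3 had 10.5 and 7.95 CPM after DAC, against 0.147 and 0.252 CPM in DMSO (5.48 ± 0.38, adjusted p = 5.12e-10). PCDHB15 had 9.84 and 9.82 CPM after DAC, against 0.589 and 0.336 CPM in DMSO (4.35 ± 0.28, adjusted p = 2.34e-10). In each of these 4 genes the DAC libraries lay far above DMSO and close to each other. PCDHB12 had 3.68 and 3.97 CPM after DAC, against 0.221 and 0.673 CPM in DMSO (3.11 ± 0.40, adjusted p = 3.6e-06), and its change was 2.51 without IMR5-75 DMSO 1 and 4.04 without IMR5-75 DMSO 2.

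PCDHB14 and PCDHB11, the beta genes that already had a level in DMSO, changed less; they were chosen after their values were seen. PCDHB14 had 7.71 and 9.97 CPM after DAC, against 4.35 and 4.46 CPM in DMSO (1.00 ± 0.20, adjusted p = 5.23e-04). PCDHB11 had 7.01 and 6.62 CPM after DAC, against 1.77 and 2.1 CPM in DMSO (1.82 ± 0.29, adjusted p = 6.39e-05). PCDHB14 held the smallest change of the 17 tested beta genes.

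Alternate alpha genes rose in 12 of 13 cases, with a median change of 4.0. PCDHA11 had 5.94 and 5.69 CPM after DAC, against 0.295 and 0 CPM in DMSO (5.12 ± 0.43, adjusted p = 1.24e-08). Its change was 9.13 without IMR5-75 DMSO 1, the DMSO library that held its counts, and 4.25 without IMR5-75 DMSO 2. PCDHA3 had 4.6 and 5.06 CPM after DAC, against 0.295 and 0.252 CPM in DMSO (4.08 ± 0.39, adjusted p = 6.16e-08). DMSO levels were so low for PCDHA12, PCDHA6 and PCDHA13 that only ratios can be given. They were 54.3 (14.7 to 454) for PCDHA12, 27.7 (9.17 to 137) for PCDHA6 and 23.0 (7.56 to 114) for PCDHA13. Without IMR5-75 DMSO 1 the PCDHA12 ratio was 25.4, and without IMR5-75 DMSO 2 it was a bound of at least 19.3; the PCDHA6 ratio was a bound of at least 12.9 without IMR5-75 DMSO 1 and a ratio of 14.8 without IMR5-75 DMSO 2. The PCDHA13 ratio was 36.7 without IMR5-75 DMSO 2.

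PCDHA8 was the alternate alpha gene that was not called, and it was also the alternate alpha gene with the highest level in DMSO. It had 3.47 and 2.49 CPM after DAC, against 2.51 and 4.54 CPM in DMSO, the groups overlapped, and the change was -0.22 ± 0.32 (adjusted p = 0.646). PCDHAC2 was not called either, with 12.7 and 11.1 CPM after DAC, against 10.2 and 11.5 CPM in DMSO (0.14 ± 0.17, adjusted p = 0.546). PCDHAC1 rose, with 12.6 and 15.2 CPM after DAC, against 8.4 and 8.16 CPM in DMSO (0.74 ± 0.19, adjusted p = 0.00438). Per kilobase of unshared coding sequence PCDHAC1 (5.66 CPM) and PCDHAC2 (4.49 CPM) remained the top alpha genes after DAC, ahead of PCDHA11 (2.40 CPM).

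Gamma genes of both alternate types rose: 12 of 12 A-type genes, with a median change of 3.10, and 7 of 7 B-type genes, with a median change of 4.14. PCDHGB4 had 4.53 and 5.14 CPM after DAC and 0 counts in both DMSO libraries, which makes it at least 40.9-fold higher. That bound was 19.1 without IMR5-75 DMSO 1 and 21.8 without IMR5-75 DMSO 2. PCDHGB7 had 3.75 and 4.44 CPM after DAC, against 0.147 and 0.168 CPM in DMSO (4.61 ± 0.44, adjusted p = 6.53e-08). PCDHGA12 had 3.68 and 3.27 CPM after DAC, against 0.147 and 0.168 CPM in DMSO (4.38 ± 0.49, adjusted p = 6.84e-07). PCDHGB6 had 4.03 and 3.19 CPM after DAC, against 0.221 and 0.168 CPM in DMSO (4.14 ± 0.47, adjusted p = 8.39e-07). PCDHGB5 had 3 counts over the DMSO group, and its ratio was 27.7 (9.17 to 137), or 44.3 without IMR5-75 DMSO 2. No gamma gene dominated as PCDHB5 did in the beta cluster: the most abundant, PCDHGA11, held 9.21 and 10.6% of the gamma sum.

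The gamma C-type genes began near 0 in IMR5-75 and, unlike the alpha C-type genes, had no level to keep. PCDHGC3 had 1.49 and 2.18 CPM after DAC, against 0.295 and 0 CPM in DMSO (3.45 ± 0.85, adjusted p = 0.00353; 2.58 to 7.46 with 1 library left out, the highest without IMR5-75 DMSO 1). PCDHGC4 and PCDHGC5 each had 1 count in DMSO and a ratio of 10.4 (1.51 to 447), an interval too wide to place them. For comparison, PCDHGC3 had 33.8 and 33.9 CPM in Be(2)-C DMSO.

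**Figure D4:**
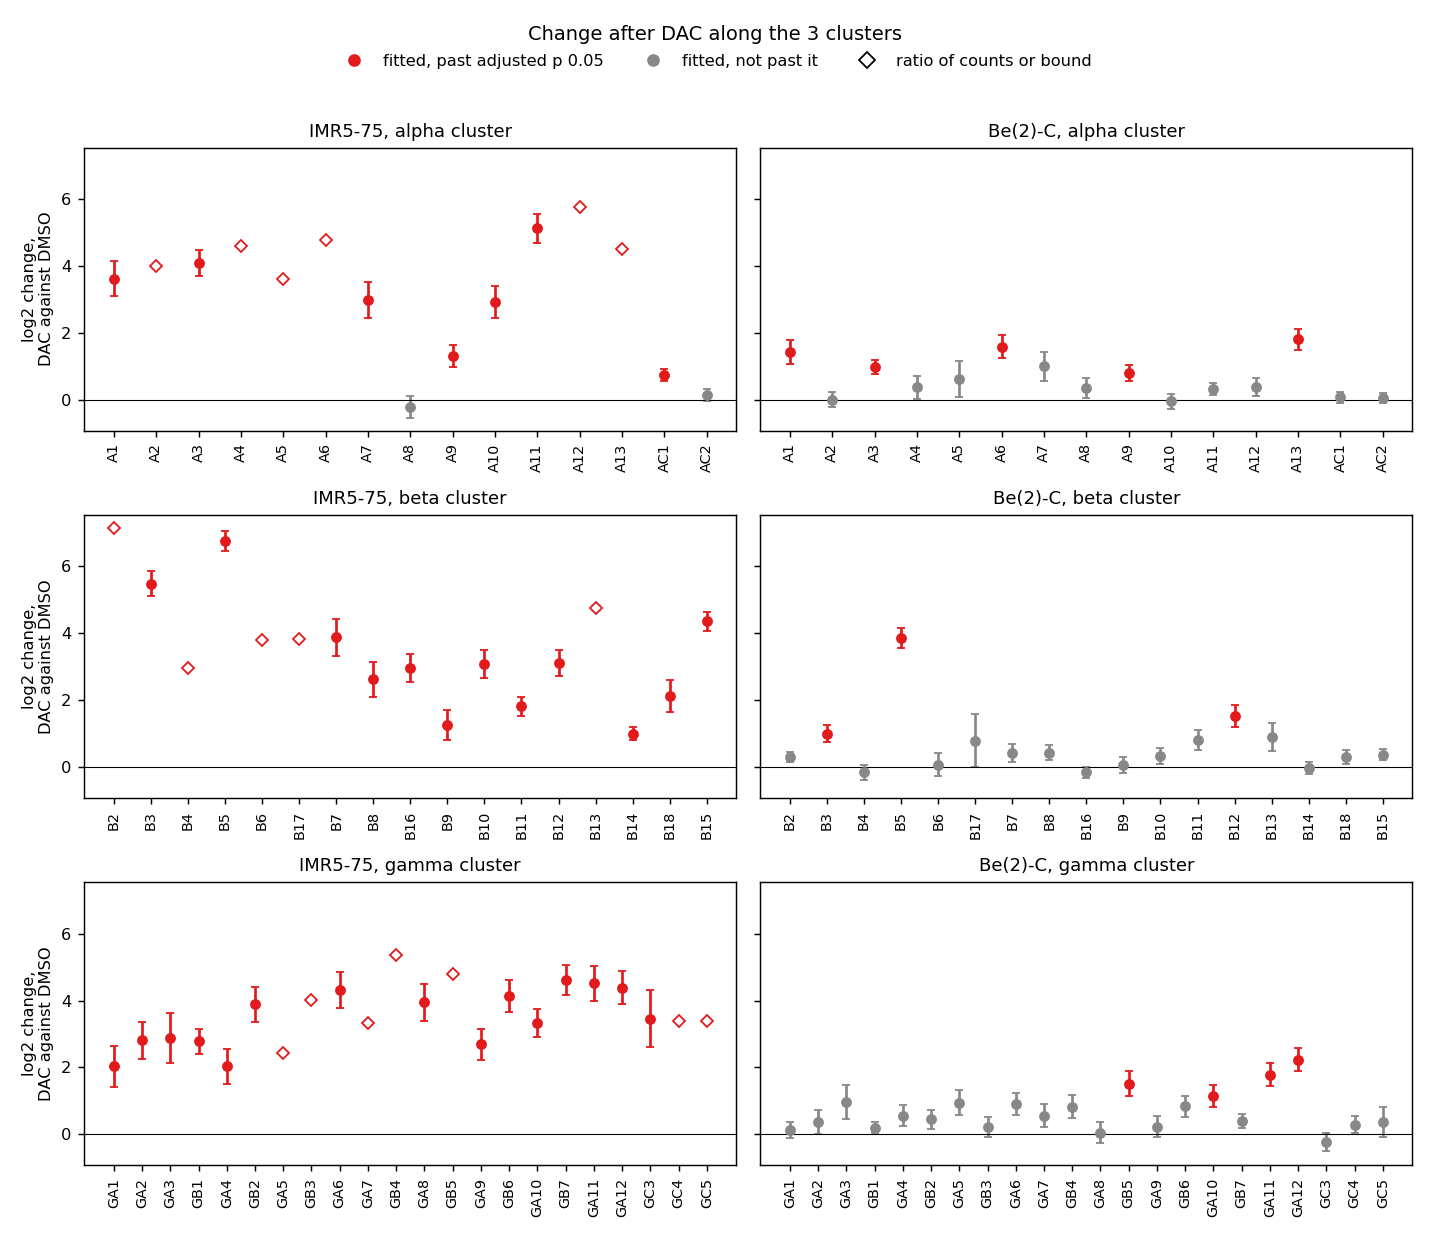
log2 change of each tested gene under DAC against DMSO (vertical axis) in chromosome order, for IMR5-75 (left column) and Be(2)-C (right column), 1 row per cluster. Filled points are fitted changes with SE, red past an adjusted p of 0.05 and grey otherwise; open diamonds are count ratios or bounds for genes with 3 or fewer DMSO counts, and B5 is the highest fitted point in both columns.

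The relation of position to the size of the change under DAC in IMR5-75 differed by cluster. In the beta cluster the 5 tested genes at the start had a median change of 5.48 under DAC, the 6 in the middle 3.02 and the 6 at the end 2.62, with a Spearman's rho of -0.48 between rank along the chromosome and change over 17 genes. In the gamma cluster without C-type genes the relation ran the other way, with rho 0.65 over 19 genes, and 0.50 over all 22 gamma genes. Of these, the 7 at the start had a median of 2.78, the 7 in the middle 4.0 and the 8 at the end 3.80. In the alpha cluster rho was 0.15 over the 13 genes without C-type genes and -0.21 over all 15. In Be(2)-C under DAC rho was 0.00 over the 17 beta genes, 0.47 over the 19 gamma genes without C-type genes and 0.11 over all 22 gamma genes. The points of each rho share libraries and DMSO controls, and genes with 3 or fewer DMSO counts enter by their ratio or bound, so these are descriptions.

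Of 23 tested genes beside the clusters, 3 were higher after DAC in IMR5-75 (VTRNA1-3, DND1 and RELL2) and 0 were lower. Over all tested genes, 19.9% were higher and 13.8% lower. The 23 leave out PCDHB19P and PCDHGB8P, clustered protocadherin pseudogenes whose symbols fall outside the rule for members. Both were called higher, PCDHB19P by 2.45 ± 0.76 and PCDHGB8P with a ratio of 23.6 (3.86 to 969). PCDH1 and PCDH12 are among the 23, were not called, and are counted again below among protocadherins outside the clusters. TAF7, a general transcription factor gene that lies between the beta and gamma clusters, changed by -0.04 ± 0.11 and was not called. DND1, an RNA-binding protein gene just outside the alpha cluster, rose by 0.82 ± 0.20 (adjusted p = 0.00366). VTRNA1-3, a vault RNA gene, had 2.34 and 1.25 CPM after DAC and 0 in DMSO, at least 15.4-fold higher, whereas in Be(2)-C it was lower after DAC, with 24.3 and 24.2 CPM against 44.5 and 40.2 CPM in DMSO. Among 12 tested protocadherins outside the clusters, 7 rose and 1 fell under DAC in IMR5-75, against the same 19.9 and 13.8% of all tested genes, with PCDH7 at 1.86 ± 0.23 (adjusted p = 2.76e-06) and PCDH18 at -0.96 ± 0.19 (adjusted p = 5.07e-04).

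Of 26 genes for proteins that act on the clusters, 14 fell and 1 rose under DAC in IMR5-75, against 13.8% of all tested genes lower and 19.9% higher. CTCF, the factor that binds the promoter element, changed by -0.59 ± 0.13 (adjusted p = 0.00116), and the cohesin subunit gene SMC3 by -0.56 ± 0.13. DNMT1, the maintenance DNA methyltransferase, changed by -0.45 ± 0.12 (adjusted p = 0.00836), and EZH2, the target of EPZ, by -0.35 ± 0.10 (adjusted p = 0.0119). In Be(2)-C under DAC 1 of the 26 rose and 1 fell, against 3.73% of all tested genes higher and 2.97% lower.

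Summed markers of other cells also rose under DAC in IMR5-75. Schwann and glial markers summed to 18.8 to 21.2 CPM after DAC there, against 9.73 to 10.2 CPM in DMSO. Haematopoietic markers gave 1.91 to 2.34 against 0.504 to 0.663 CPM, and epithelial markers 1.98 to 2.19 against 0.84 to 1.4 CPM. These sums also rose in Be(2)-C, where the epithelial sum was 19.8 to 23 CPM after DAC, against 4.86 to 7.25 CPM in DMSO. Of 6 tested fibroblast or mesenchymal markers, 5 were higher after DAC in IMR5-75, against 19.9% of all tested genes higher and 13.8% lower. The 7 listed genes summed to 462 to 486 CPM after DAC, against 189 to 215 CPM in DMSO. In both lines none of the 7 was at 0 in every library. COL3A1, a fibrillar collagen gene, had 221 and 228 CPM after DAC, against 54 and 52.8 CPM in DMSO. In Be(2)-C the same sum was 157 to 159 CPM after DAC, against 211 to 227 CPM in DMSO, but its genes did not move together. COL3A1 (1.85 ± 0.53, adjusted p = 0.039) and LUM (0.98 ± 0.22, adjusted p = 0.0102) rose there, and DCN (-0.60 ± 0.14, adjusted p = 0.00994) and TWIST1 (-0.61 ± 0.13, adjusted p = 0.00607) fell. The part of these markers in the protocadherin results was not tested.

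EPZ alone called 0 of the 54 genes in IMR5-75 by edgeR and 1 by DESeq2, against 1.63% of all tested genes called higher and 0.344% lower by edgeR. At an unadjusted p under 0.05 there were 7 of the 54, all 7 higher, against 9.88% of all tested genes higher. Leaving out IMR5-75 DMSO 1 gave 1 call. The median change was 0.53, against 0.01 over all tested genes, and both EPZ libraries were above both DMSO libraries in 20 genes and below in 1, against 26.1% of all tested genes above and 23.3% below. PCDHB5 had 0.315 and 0.157 CPM after EPZ, against 0.295 and 0.168 CPM in DMSO, with full overlap. PCDHGC3 had 1.73 and 0.629 CPM after EPZ, against 0.295 and 0 CPM in DMSO, and its change of 2.83 ± 0.94 had an adjusted p of 0.134. The alpha sum averaged 27.7 ± 1.19 CPM after EPZ and 25.6 ± 2.38 CPM in DMSO, and the beta sum 14.6 ± 0.685 CPM after EPZ and 9.95 ± 0.316 CPM in DMSO (SD, n = 2 each). The gamma sum averaged 7.08 ± 1.57 CPM after EPZ and 4.21 ± 1.55 CPM in DMSO, a ratio of means of 1.68, compared with 1.08 for alpha and 1.46 for beta.

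Both drugs together raised 51 of 54 genes in IMR5-75 against the same DMSO libraries, against 25.7% of all tested genes higher and 20.4% lower, with a median change of 3.61. The 51 were 51 of the 52 that DAC alone raised, the exception being PCDHGC5, but the comparisons share their controls. PCDHB5 had 18.7 and 21.6 CPM after both drugs (6.36 ± 0.31), PCDHB15 had 9.24 and 9.13 CPM (4.26 ± 0.28, adjusted p = 2.14e-10) and PCDHB3 had 9.38 and 8.24 CPM (5.41 ± 0.38, adjusted p = 4.08e-10), against the DMSO values given above. PCDHB2 had 15 and 14.6 CPM after both drugs, a ratio of 126 (42.7 to 611). PCDHB6, with 0 counts in DMSO, was at least 19.0-fold higher, or at least 8.86-fold without IMR5-75 DMSO 1.

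Set directly against DAC alone, both drugs called 0 of the 54 genes in IMR5-75 by edgeR and 0 by DESeq2, against 1.22% of all tested genes higher and 0.72% lower by edgeR. At an unadjusted p under 0.05 there were 4 of the 54, against 14.7% of all tested genes in either direction. PCDHB5 had 18.7 and 21.6 CPM after both drugs, against 26.9 and 26.1 CPM after DAC, without overlap (-0.39 ± 0.16, adjusted p = 0.246). PCDHB17 had 1.32 and 1.3 CPM after both drugs, against 0.354 and 0.779 CPM after DAC (1.22 ± 0.52, adjusted p = 0.273). Set against EPZ alone, both drugs raised 48 of 54 genes and lowered 0, against 20.7% of all tested genes higher and 16.9% lower, with PCDHB5 at 6.36 ± 0.31 (adjusted p = 4.09e-12). The interaction of the drugs, which asks whether the combination differs from the sum of the single changes, called 0 of the 54 genes in IMR5-75 by edgeR and by DESeq2, against 0.0251% of all tested genes called by edgeR. At an unadjusted p under 0.05 there were 9 of the 54, all 9 with a negative interaction. Over all tested genes the share was 6.93%, with 2.64% positive and 4.3% negative.

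In Be(2)-C, where most of the genes already had a level, DAC raised 12 of 54 genes and lowered 0, against 3.73% of all tested genes higher and 2.97% lower. These were 5 of 15 alpha, 3 of 17 beta and 4 of 22 gamma genes, and the median change of the 54 was 0.41. PCDHB5 had 9.54 and 10.5 CPM after DAC, against 0.543 and 0.826 CPM in DMSO, or 116 and 114 counts against 6 and 9 (3.85 ± 0.29, adjusted p = 2.29e-08). PCDHGA12 had 5.59 and 3.89 CPM after DAC, against 1.09 and 0.918 CPM in DMSO (2.24 ± 0.35, adjusted p = 3.31e-04). PCDHA13 had 5.01 and 5.55 CPM after DAC, against 1.63 and 1.38 CPM in DMSO (1.80 ± 0.31, adjusted p = 9.05e-04). These 3 genes, all low in untreated Be(2)-C, were the ones called with any 1 library left out.

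The other 9 calls were each lost in at least 1 of the fits with a library left out. Such a fit leaves 1 library in a group, so a call can be lost while the change stays similar. PCDHA1 changed by 1.44 with all libraries and by 1.44 without Be(2)-C DMSO 1. PCDHGA11 had 6.82 and 7.68 CPM after DAC, against 1.45 and 2.75 CPM in DMSO (1.78 ± 0.35, adjusted p = 0.0032). Without Be(2)-C DMSO 1 its change was 1.38, with an adjusted p of 0.102. PCDHA3 changed by 0.98 ± 0.21 (adjusted p = 0.00609), and without Be(2)-C DMSO 1 by 0.93, with an adjusted p of 0.097. PCDHB12 changed by 1.54 ± 0.33 and, without Be(2)-C DMSO 1, by 1.51 with an adjusted p of 0.0843. PCDHGA10 changed by 1.13 ± 0.33 (adjusted p = 0.0427), by 0.70 without Be(2)-C DMSO 1 and by 1.72 without Be(2)-C DMSO 2.

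None of the 5 C-type genes was called under DAC in Be(2)-C. PCDHGC3, the most abundant gamma gene, had 30.3 and 27.5 CPM after DAC, against 33.8 and 33.9 CPM in DMSO (-0.23 ± 0.26, adjusted p = 0.659). PCDHAC2 had 29.3 and 31.2 CPM after DAC, against 27.1 and 30.7 CPM in DMSO (0.07 ± 0.15, adjusted p = 0.841). The changes of PCDHAC1, PCDHGC4 and PCDHGC5 were 0.08 ± 0.17, 0.29 ± 0.26 and 0.36 ± 0.45.

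**Figure D5:**
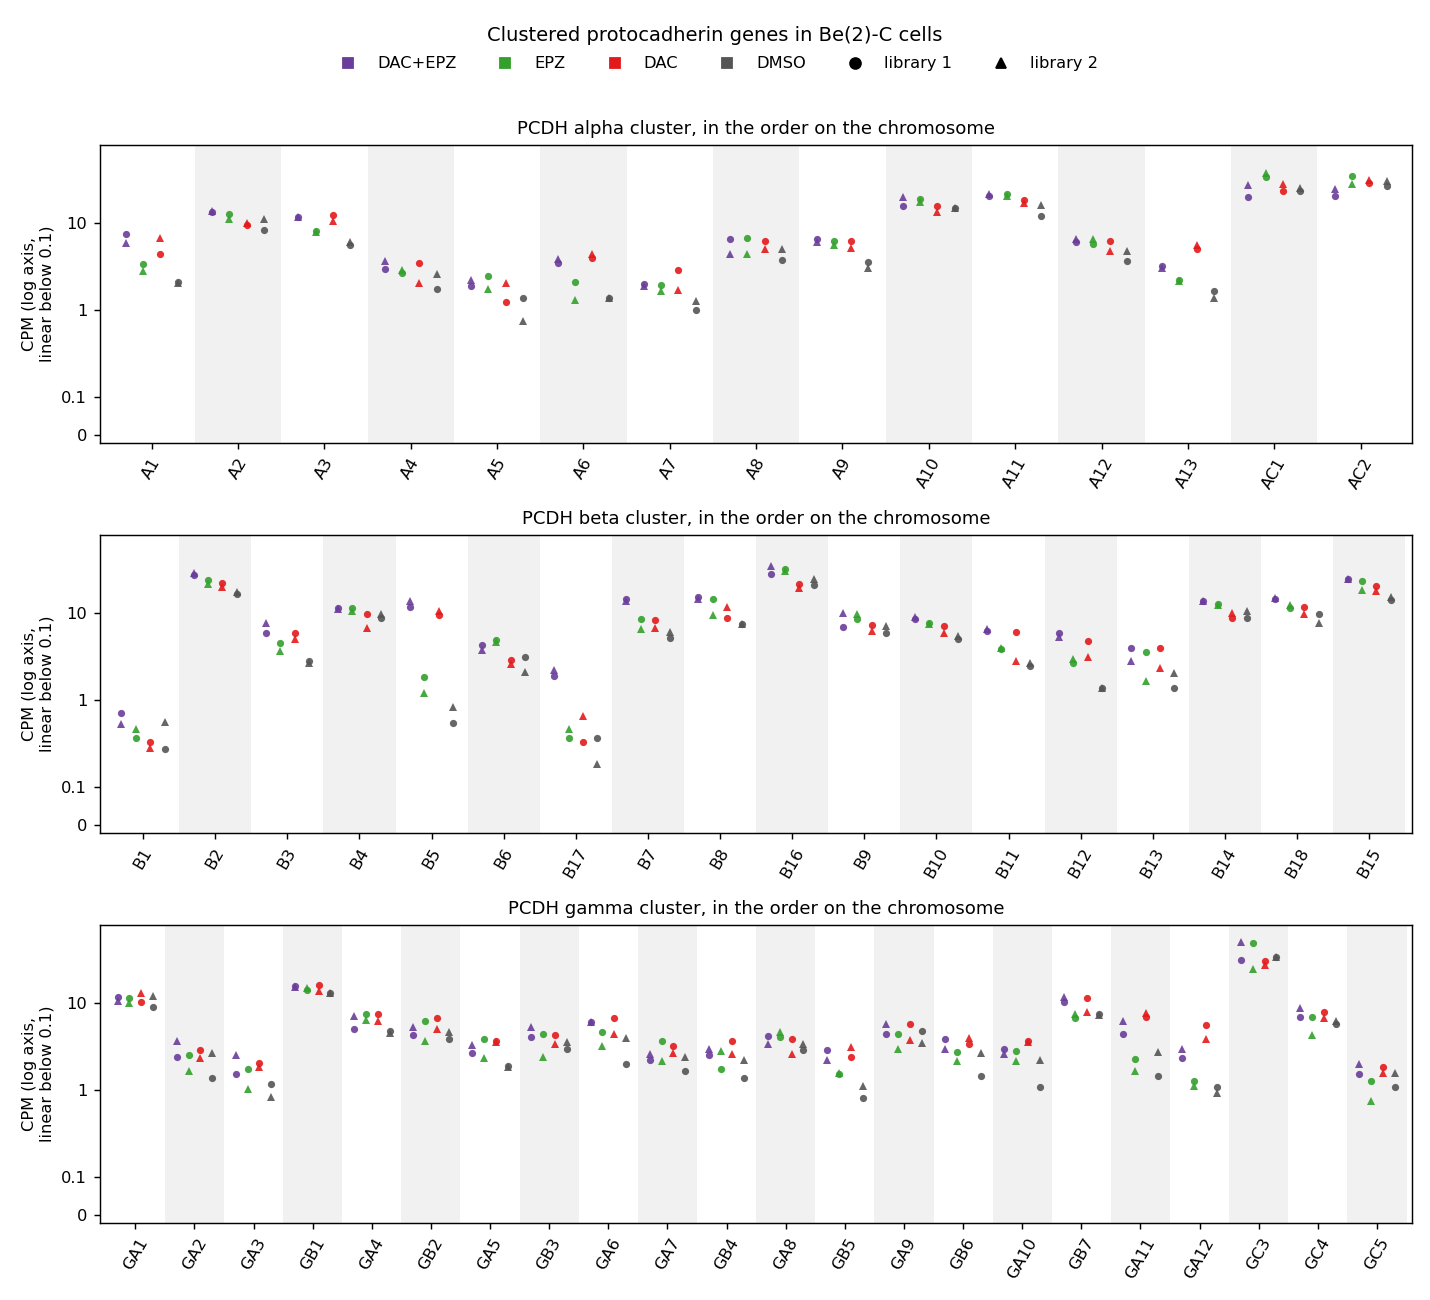
Level of each of the 55 genes in Be(2)-C cells in CPM (vertical axis, logarithmic above 0.1 and linear below) in each library, genes in chromosome order and 1 panel per cluster, with colours for treatment and shapes for library. The 4 groups lie close together for most genes; B5 stands out, with 9.54 to 13.6 CPM after DAC or both drugs and less than 1 CPM in DMSO.

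EPZ alone raised 3 genes in Be(2)-C and lowered 0, against 5.35% of all tested genes higher and 4.85% lower. PCDHAC1 had 34.4 and 37.6 CPM after EPZ, against 23.5 and 25.1 CPM in DMSO (0.57 ± 0.17, adjusted p = 0.0322). PCDHB15 had 23.3 and 18.6 CPM after EPZ, against 14.3 and 15.3 CPM in DMSO (0.50 ± 0.16, adjusted p = 0.0489). PCDHA9 changed by 0.85 ± 0.23 (adjusted p = 0.0217). Without Be(2)-C DMSO 1 none of the 3 was called, with changes of 0.51 for PCDHAC1 (adjusted p = 0.242), 0.43 for PCDHB15 (adjusted p = 0.304) and 0.94 for PCDHA9 (adjusted p = 0.0948). Both EPZ libraries were above both DMSO libraries in 16 of 17 beta genes, 12 of 15 alpha genes and 6 of 22 gamma genes, against 29.3% of all tested genes. PCDHB5 had 1.81 and 1.2 CPM after EPZ, against 0.543 and 0.826 CPM in DMSO (1.13 ± 0.41, adjusted p = 0.0832).

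Both drugs raised 23 of 54 genes in Be(2)-C and lowered 0, against 13.2% of all tested genes higher and 10.4% lower, and the beta cluster held 12 of them. The beta sum was 205 and 218 CPM after both drugs, against 115 and 124 CPM in DMSO, a ratio of means of 1.77. PCDHB5 had 11.6 and 13.6 CPM after both drugs, against 0.543 and 0.826 CPM in DMSO (4.18 ± 0.29, adjusted p = 3.75e-09). PCDHB12 had 5.87 and 5.24 CPM after both drugs, against 1.36 and 1.38 CPM in DMSO (2.02 ± 0.32, adjusted p = 8.61e-05). PCDHB7 had 14.6 and 13.9 CPM after both drugs, against 5.16 and 6.06 CPM in DMSO (1.35 ± 0.26, adjusted p = 6.3e-04). In these genes the groups did not overlap. PCDHB2, already among the highest beta genes in Be(2)-C, had 27.3 and 29 CPM after both drugs, against 16.6 and 17.7 CPM in DMSO (0.72 ± 0.15, adjusted p = 0.00109). PCDHA3 had 11.9 and 11.8 CPM after both drugs, against 5.62 and 5.97 CPM in DMSO (1.04 ± 0.21, adjusted p = 0.00108).

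With 1 library left out, 13 to 16 of the 23 were called, 13 without Be(2)-C DMSO 1 and 14 without Be(2)-C DAC+EPZ 2. The 11 called each time were 9 beta genes and 2 alpha genes (PCDHA1 and PCDHA3), and none of the 5 gamma calls was among them. PCDHGA11, the gamma gene with the smallest adjusted p, changed by 1.34 ± 0.37 (adjusted p = 0.0107), and by 0.93 without Be(2)-C DMSO 1 (adjusted p = 0.169). No C-type gene was called, and PCDHAC2 had 20.4 and 24.8 CPM after both drugs, against 27.1 and 30.7 CPM in DMSO (-0.36 ± 0.15, adjusted p = 0.0933).

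Set against DAC alone, both drugs raised 3 genes in Be(2)-C, all in the beta cluster, and lowered 0, against 3.42% of all tested genes higher and 2.02% lower. PCDHB17 had 1.87 and 2.2 CPM after both drugs, against 0.329 and 0.648 CPM after DAC (2.05 ± 0.54, adjusted p = 0.0279). PCDHB7 had 14.6 and 13.9 CPM after both drugs, against 8.3 and 6.76 CPM after DAC (0.92 ± 0.25, adjusted p = 0.033). PCDHB16 had 27.9 and 34.8 CPM after both drugs, against 21.9 and 19.4 CPM after DAC (0.60 ± 0.16, adjusted p = 0.0354). With 1 library left out, 0 or 1 member was called, and none was called each time. Set against EPZ alone, both drugs raised 4 genes and lowered PCDHAC1, against 2.84% of all tested genes higher and 1.37% lower. PCDHAC1 had 19.9 and 27.7 CPM after both drugs, against 34.4 and 37.6 CPM after EPZ (-0.60 ± 0.17, adjusted p = 0.0421). PCDHB5 changed by 3.05 ± 0.25 in that comparison (adjusted p = 1.19e-07) and was the only one of the 5 called with any library left out. The interaction of the drugs called 0 of the 54 genes in Be(2)-C by edgeR and by DESeq2, against 0.257% of all tested genes called by edgeR. At an unadjusted p under 0.05 there were 5 of the 54, all 5 with a negative interaction. Over all tested genes the share was 7.53%, with 3.44% positive and 4.1% negative.

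The difference between the lines in their response was tested directly. Under DAC 36 of 54 genes rose more in IMR5-75 than in Be(2)-C and 0 rose less, against 5.13% of all tested genes with a higher and 1.06% with a lower response in IMR5-75, with 8 alpha, 13 beta and 15 gamma genes among them. PCDHB15 rose by 3.99 ± 0.34 more in IMR5-75 on the log2 scale (adjusted p = 5.97e-08), PCDHB3 by 4.48 ± 0.52 more (adjusted p = 4.01e-06) and PCDHGB7 by 4.23 ± 0.52 more (adjusted p = 8.51e-06). PCDHA11 rose by 4.80 ± 0.51 more (adjusted p = 1.25e-06), with a range of 3.93 to 8.82 when 1 library was left out, the highest without IMR5-75 DMSO 1. Under both drugs 36 of 54 genes rose more in IMR5-75 and 0 less, against 6.71% of all tested genes higher and 4.35% lower. Under EPZ 0 of the 54 genes were called by edgeR and by DESeq2, against 0.57% of all tested genes higher in IMR5-75 and 0.62% lower by edgeR. At an unadjusted p under 0.05 there were 4 of the 54, all 4 higher in IMR5-75. Over all tested genes the share was 11.6%, with 6.24% higher and 5.33% lower.

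After DAC the order of the genes by level in IMR5-75 shared little with their order in untreated Be(2)-C. Across the 53 genes with a coding length, the level per kilobase of unshared coding sequence in IMR5-75 after DAC had a Spearman's rho of 0.16 with the level in untreated Be(2)-C, and of 0.40 with the level in Be(2)-C after DAC, as a description over genes with different libraries on each side. Per kilobase PCDHB5 led the beta cluster in IMR5-75 after DAC at 11.1 CPM, against 4.19 CPM in Be(2)-C after DAC. The gene that led each cluster in Be(2)-C after DAC was PCDHAC2 in the alpha cluster (11.4 CPM per kilobase), PCDHB16 in the beta cluster (8.89) and PCDHGC3 in the gamma cluster (11.2).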

How the data were processed

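The deposited table holds raw counts per gene symbol, which the authors made for 16 libraries. Per the submitters' processing notes they used TopHat2 2.0.5, HTSeq 0.5.3p9, DESeq2 and the build hg19. Per the labels, ribosomal RNA was depleted, the kit kept strand, and reads were 50-base single-end. For the annotation and the strand setting: not given in the sources used here. All 16 columns were matched to samples by name. Genes were kept by filterByExpr (15967 of 23459) and scaled by TMM (factors 0.9276 to 1.116). They were fitted in 8 groups with edgeR 4.0.16 in R 4.3.3, with 8 residual degrees of freedom. The common coefficient of variation between the libraries of a group, beyond counting error, was 9.88%. The fit was also tested on simulated data. The alternatives were DESeq2 1.42.0 size factors, its Wald test, no filter, a replicate block, each line alone, and each library left out. Where 1 library of a group remains, it is assumed to vary like the other groups.

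Replicate numbers were shared across groups, but the deviations of equal numbers correlated at only -0.25 to 0.14 within a comparison, so no pairing was used. The members and the lists were chosen with earlier results of these data known. For named genes the rule allowed, in each treatment's comparison with DMSO, up to 5 called members per cluster and direction by adjusted p, up to 4 per direction in other comparisons, the 5 C-type genes, and the most abundant gene of each cluster; others are said to be chosen after their values were seen. PCDHB5, PCDHA8, PCDHB14 and PCDHB11 are followed through comparisons on that footing. Coding lengths came from GENCODE 29, counting bases that no other member shares, and promoter windows from RefSeq GRCh38.p14, matched by symbol (55 of 55 genes, 2 by an older symbol). Words of 8 letters were those most frequent in the members' windows. Coordinates are 1-based.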

Additional observations from a re-analysis of the deposited data

Results flagged for a closer look

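The response of the clustered protocadherins differed between the 2 lines by a test of the difference itself. Under DAC 36 of 54 tested genes, and under DAC+EPZ likewise 36, rose more in IMR5-75 than in Be(2)-C. With 1 library left out these counts were 26 to 34 under DAC and 25 to 34 under DAC+EPZ, and 23 and 20 genes were called each time. Under DAC the differences, IMR5-75 minus Be(2)-C in log2, were 3.99 for PCDHB15, 4.80 for PCDHA11, 4.48 for PCDHB3 and 4.23 for PCDHGB7. Under DAC+EPZ they were 3.54 for PCDHB15, 4.53 for PCDHA11, 4.10 for PCDHB3 and 3.75 for PCDHGB7, with adjusted p between 3.09e-07 and 4.57e-05 by edgeR's quasi-likelihood test. The DAC+EPZ value of PCDHA11 ran from 3.66 to 8.59 with 1 library left out, the highest without IMR5-75 DMSO 1. The part of the lower DMSO levels in IMR5-75, given above, in these differences was not tested.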

How the results depend on the processing

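Changing the scaling, the filter or the tool, adding a replicate block or fitting each line alone left most counts of called members within 1.5 times. Exceptions were EPZ in IMR5-75 (0; 1 without the filter and 1 by the DESeq2 Wald test), both drugs against EPZ in Be(2)-C (5; 8 without the filter) and the line difference under EPZ (0; 1 without the filter). The cause was not tested. With a replicate block the counts were 11, 2 and 22 in Be(2)-C for DAC, EPZ and both against DMSO, and 52, 0 and 51 in IMR5-75. The replicate block ended the call of PCDHB15 under EPZ (adjusted p = 0.0623), of PCDHGA10 under DAC (adjusted p = 0.0557) and of PCDHGB7 under both drugs (adjusted p = 0.0558), each in Be(2)-C. Crossing the replicate numbers, chosen after seeing the data, gave 52, 5, 48 and 0 calls in the 4 comparisons where it was tried. With 1 library left out, the counts were 3 to 9 (DAC), 0 to 2 (EPZ) and 13 to 16 (both drugs) against DMSO in Be(2)-C, and 45 to 48 (DAC), 0 to 1 (EPZ) and 48 to 51 (both drugs) in IMR5-75. They were 1 to 2 for both drugs against EPZ and 0 to 1 against DAC in Be(2)-C, 45 to 48 and 0 to 0 in IMR5-75, 0 to 0 for both interactions, 26 to 34, 0 to 0 and 25 to 34 for the line differences under DAC, EPZ and both, and 49 to 50 between the lines in DMSO. Of 540 alternative values of the 60 named changes, 470 kept side and direction, 70 lost the call and 0 reversed. Counts near 0 in IMR5-75 DMSO limit the precision of its folds.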
